A study of Mus musculus with 26 samples.

Results

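Deletional joins to Sε, the switch (S) region upstream of the Cε exons, were analysed in CSR-HTGTS libraries of cytokine-stimulated splenic B cells. CSR-HTGTS copies genomic DNA from a primer next to a bait region and sequences the junctions at which a broken bait end was joined to a prey end elsewhere. The joins were chosen by prey position, on chromosome 12 between 114.504 and 114.522 Mb (mm9), and by prey orientation, as those whose read entered Sε on the sense strand of IgH, which is the minus strand. This is the orientation that deletes the DNA between bait and Sε. Of 777800 junctions in 26 libraries, 616341 lay in IgH and 34079 were deletional joins to Sε, from 114505460 to 114521007. A further 6222 joins to Sε had the opposite, inversional orientation.

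The cells were CD43- splenic B cells of WT or homozygous A150 mice, both of 129Sv background and 6 to 8 weeks old. The A150 allele lacks the Iγ3 promoter and holds there a further copy of the Eµ enhancer together with a rearranged VDJ, so that Sγ3 as well as Sµ lies downstream of an Eµ enhancer. Libraries were made with a bait upstream of Sµ or of Sγ3 (joins from Sµ or from Sγ3), after culture labelled as 96 h with anti-CD40+IL4 (IL4 cultures) or with anti-CD40+TGF-β (TGF-β cultures), a mix that also holds IL4 at a lower concentration, IL5 and BLyS. The study's figure legends refer to independent mice, but the labels do not tie single libraries to mice. The p-values therefore measure the spread between these libraries, which may be technical in part. Each stimulation was sequenced in a run of its own, and stimulation and run therefore cannot be told apart, whereas genotypes and baits were compared within a run.

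In CSR, AID deaminates cytosines in transcribed S regions, preferentially in AGCT motifs, and the resulting double-strand breaks in a donor and an acceptor S region are joined by end-joining pathways. Sµ is the usual donor and Sε the acceptor for IgE, which IL4 induces through the Iε promoter. Sε can be reached directly from Sµ or by way of a Sµ/Sγ1 hybrid. An overlap of a few bases shared by both ends, or microhomology (MH), is known as a mark of alternative end joining when it is long, and a direct join is a typical product of the classical pathway.

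The joins were concentrated in a small stretch of the interval. With each library weighted equally, the middle 95% lay within 2884 bp, from 114512758 to 114515641, and the 3 bins of 1000 bp from 114513000 to 114515999 held 96.0% of the joins on average (92.1% to 98.6% per library). The median lay at 114514360. Sequenced bases of the Sε alignments covered 4880 positions in a row, from 114511441 to 114516320, by at least 10 reads each. The majority sequence was the same as the reference bases that fill unsequenced gaps in the deposited reads at 4740 of 4740 positions where both were present. Within the middle 95%, AGCT, which reads the same on both strands, occurred 89 times. GAGCT, which contains it, occurred 65 times on the sense strand, GGGCT 47 times and GGGGT 4 times.

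The 300 bp with the most deletional joins, chr12:114514785-114515084 (mm9, minus strand), held 17.1% of the joins on average, from 11.9% to 22.9% in single libraries. This stretch is shown because it is the part of Sε most used, with AGCT in capitals.
Sε window: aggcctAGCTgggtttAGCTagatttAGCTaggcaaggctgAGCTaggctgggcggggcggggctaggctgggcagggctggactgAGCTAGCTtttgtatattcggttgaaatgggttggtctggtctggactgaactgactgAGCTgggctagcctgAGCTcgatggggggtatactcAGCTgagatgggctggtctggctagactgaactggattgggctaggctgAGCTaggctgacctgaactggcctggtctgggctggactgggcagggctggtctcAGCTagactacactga
It contained 11 AGCT motifs, against a median of 10 over all 2585 windows of 300 bp in the middle 95% (2 to 19 motifs, with at least 1 in 100% of them).

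Single positions took small shares of the joins. The 34070 joins outside the WT Sγ3-bait libraries used 3747 positions, and 538 positions were needed to account for 50% of them. The 5 most used positions of the window are printed to show what lies at a break, with the bases lost in lower case and the bases kept after joining in capitals.
position 94 of the window: ctgagctagcTTTTGTATAT
position 10 of the window: caggcctagcTGGGTTTAGC
position 90 of the window: tggactgagcTAGCTTTTGT
position 179 of the window: gggggtatacTCAGCTGAGA
position 288 of the window: tggtctcagcTAGACTACAC
The most used, at 114514991, took 0.690% of the joins on average (0% to 1.35% per library) and was found in 18 of 20 libraries, with 239 joins to 134 different bait ends. The second, at 114515075, took 0.295%, and the other three took 0.229% to 0.282%. At all 5 positions the first base kept was T, and at 4 of 5 the break followed the C of an AGCT motif. Most joins at 114514991 shared no base with the bait, since 19.2% of the 239 had an overlap of at least 1 bp.

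Breaks at AGCT were then counted over the middle 95%. Only the 16682 deletional joins without overlap were used, because an overlap leaves the exact break undefined. On average 21.7% ± 3.52 (SD, n = 20 libraries) of these breaks lay at one of the 3 bonds inside AGCT, against 9.26% of all bonds there. When bonds were taken from the same 100 bp as the breaks, the background was 11.1% ± 0.343, and 20 of 20 libraries lay above their own background. The 3 bonds were not used alike. The bond between C and T took 15.9% ± 3.16 of the breaks, that between G and C 3.98% ± 0.895 and that between A and G 1.76% ± 1.14, whereas each makes up 3.09% of the bonds. The bond between C and T was the most used of the 3 in 20 of 20 libraries. Among 8903 direct joins alone, an alternative chosen after seeing the data, the means were 12.1%, 4.62% and 1.76%, and the bond between C and T led in 17 of 20 libraries.

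Inversional joins, which keep the other side of the Sε break, had the mirror image on the sense strand. In the 16 libraries with at least 20 such joins without overlap, a minimum set after seeing the data, 14.8% ± 3.43 of their breaks lay at the bond between A and G, 2.98% ± 1.89 at that between G and C and 0.919% ± 1.13 at that between C and T. Because the motif is a palindrome, the preferred bond leaves T as the first base of the kept end in both orientations, read from the junction into Sε. It was the most used of the 3 in 16 of 16 libraries for the 3331 inversional joins. An A150 Sµ-bait library of TGF-β cultures, below the minimum with 16 such joins, had the opposite order. Its breaks lay at the bond between C and T in 12.5% and at that between A and G in 6.25%. The inversional share inside AGCT lay above the background of the library in 15 of 16. In the group means for deletional joins, the share of breaks inside AGCT ranged from 17.3% ± 7.90 in the WT TGF-β cultures, the group with the fewest joins, to 24.0% ± 2.37 in A150 Sγ3-bait libraries of TGF-β cultures. Differences between groups were not tested.

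**Figure D1:**
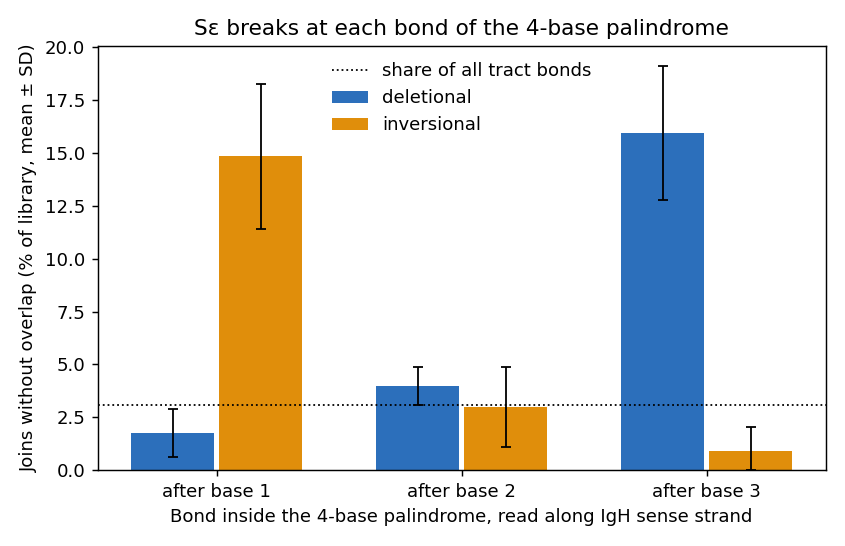
Share of deletional (blue) and inversional (orange) Sε joins without overlap whose break lies at each of the 3 bonds of AGCT on the sense strand, as mean ± SD in % of such joins over 20 libraries (deletional) or the 16 with at least 20 joins (inversional). The dotted line is the 3.09% of bonds that each makes up, and the tall bars are the bonds that leave T at the end that is kept.

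The share of IgH junctions taken up by deletional Sε joins depended on genotype, bait and stimulation. In IL4 cultures with the Sµ bait, the 3 WT libraries gave 6.83%, 5.52% and 6.54%. The 4 A150 libraries gave 10.9%, 14.2%, 14.2% and 14.5%, all above the WT libraries. With the Sγ3 bait the 3 A150 libraries gave 5.05%, 5.15% and 5.04%, below both Sµ-bait groups. In TGF-β cultures the values were 1.51%, 1.80% and 1.57% in WT with the Sµ bait, 4.74%, 5.70% and 6.53% in A150 from Sµ, and 1.32%, 1.44%, 1.93% and 1.62% in A150 with the Sγ3 bait. A150 thus lay above WT for the Sµ bait, 2.13-fold and 3.48-fold in the means for the 2 stimulations, while WT from Sµ and A150 with the Sγ3 bait overlapped in TGF-β cultures.

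**Figure D2:**
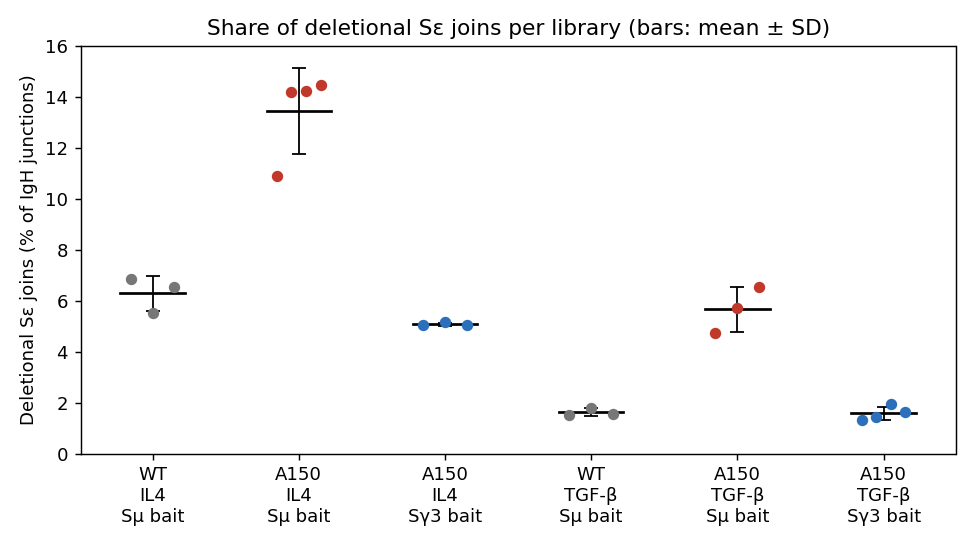
Deletional Sε joins as % of the IgH junctions of each library (points), by genotype, stimulation and bait, with the mean ± SD of each group. The A150 Sµ-bait libraries lie highest within each stimulation, at 10.9% to 14.5% for IL4 and 4.74% to 6.53% for TGF-β.

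Over both stimulations, the A150 share exceeded the WT share with the Sµ bait by 5.59 percentage points (2-sided exact permutation test over libraries within stimulations, p = 0.00143, Benjamini-Hochberg adjusted p = 0.00367 over 18 tests). Within A150, the Sγ3-bait share minus the Sµ-bait share was -6.22 points (exact p = 0.000816, adjusted p = 0.00294). Libraries of TGF-β cultures differed from those of IL4 cultures by -5.32 points (exact p = 4.08e-05, adjusted p = 0.000367), with a ratio of the means of 0.258 in WT with the Sµ bait, 0.421 in A150 from Sµ and 0.310 in A150 with the Sγ3 bait. IgH itself held less of all junctions in TGF-β than in IL4 cultures, 43.4% against 92.7%, 57.5% against 91.9% and 78.2% against 94.9% in the same order of groups. Of the junctions of the whole genome, deletional Sε joins were 0.706% against 5.84% in WT, 3.28% against 12.3% in A150 from Sµ and 1.23% against 4.82% in A150 from Sγ3. Neither the genotype nor the bait difference in share was shown to change with the stimulation (exact permutation tests of the interaction, adjusted p = 0.891 and 0.840). Within a single stimulation, the smallest exact p that 3 against 3 libraries allow is 0.10 and that for 4 against 3 is 0.0286.

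The genotype difference depends on what the joins are counted against. In WT Sµ-bait libraries nearly all IgH junctions fell in Sγ1 (85.9% ± 1.51 in IL4 cultures) or in the S region of the bait itself (7.23% ± 0.848). In A150 Sµ-bait libraries Sγ1 took 72.2% ± 3.30, the region of the bait 9.29% ± 1.18 and Sγ3 3.89% ± 0.383, against 0.00610% for Sγ3 in WT. Of the IgH junctions outside Sγ1 and the bait region, deletional Sε joins made up 91.3% ± 0.406 in WT (n = 3) but 72.5% ± 1.14 in A150 (n = 4) in IL4 cultures, and 55.3% ± 2.08 against 39.3% ± 4.90 (n = 3 each) in TGF-β cultures. With this denominator the genotype difference was reversed, at -17.4 points (exact permutation test, adjusted p = 0.00367), while the bait and stimulation differences kept their direction at -41.0 and -28.1 points. Junctions marked for low mapping quality, which include no deletional Sε join, also enter the IgH total. Without them the differences were 9.29 points for genotype, -19.6 for bait and -18.3 for stimulation, each past the threshold (exact permutation tests, adjusted p = 0.00367, 0.00294 and 0.000367). Set against Sγ1, there were 8.26 ± 0.983 deletional Sε joins per 100 deletional Sγ1 joins in WT (n = 3) and 22.1 ± 3.76 in A150 (n = 4) from Sµ in IL4 cultures. The corresponding values in TGF-β cultures were 2.10 ± 0.20 and 8.69 ± 1.46 (n = 3 each).

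With the Sγ3 bait in WT, where Sγ3 has its own promoter, Sε joins were few. The 3 libraries of IL4 cultures held 2, 3 and 4 deletional Sε joins, 9 of 256 IgH junctions together or 3.52% (exact binomial 95% interval 1.62% to 6.57%). The 3 of TGF-β cultures held 0 of 106, which allows a share of up to 2.83% when the limit is set at 3 counts of the total, or 3.42% as the upper bound of the exact binomial interval. Intervals and limits here cover counting error only. Of the 9 joins, 6 carried an insertion, 1 was direct and 2 had an overlap of 1 to 3 bp, and 2 of the 8 distinct ones had the same bait end, prey position and overlap as a junction of an A150 Sγ3-bait library. These libraries were left out of the tests.

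The position of the joins along Sε moved with the groups. Each library was described by its upstream share, the percentage of deletional joins at or upstream of the pooled median, where upstream is the side nearer to the Iε promoter. In IL4 cultures it was 47.8%, 48.0% and 46.7% in WT with the Sµ bait, 39.4%, 35.9%, 36.3% and 37.5% in A150 from Sµ, and 49.0%, 49.0% and 50.2% in A150 with the Sγ3 bait. In TGF-β cultures it was 60.0%, 60.4% and 58.9% in WT with the Sµ bait, 45.2%, 47.5% and 52.1% in A150 from Sµ, and 61.5%, 58.7%, 59.5% and 57.8% in A150 with the Sγ3 bait. A150 Sµ-bait libraries therefore had the most downstream joins within each stimulation, with no overlap with the other groups.

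**Figure D3:**
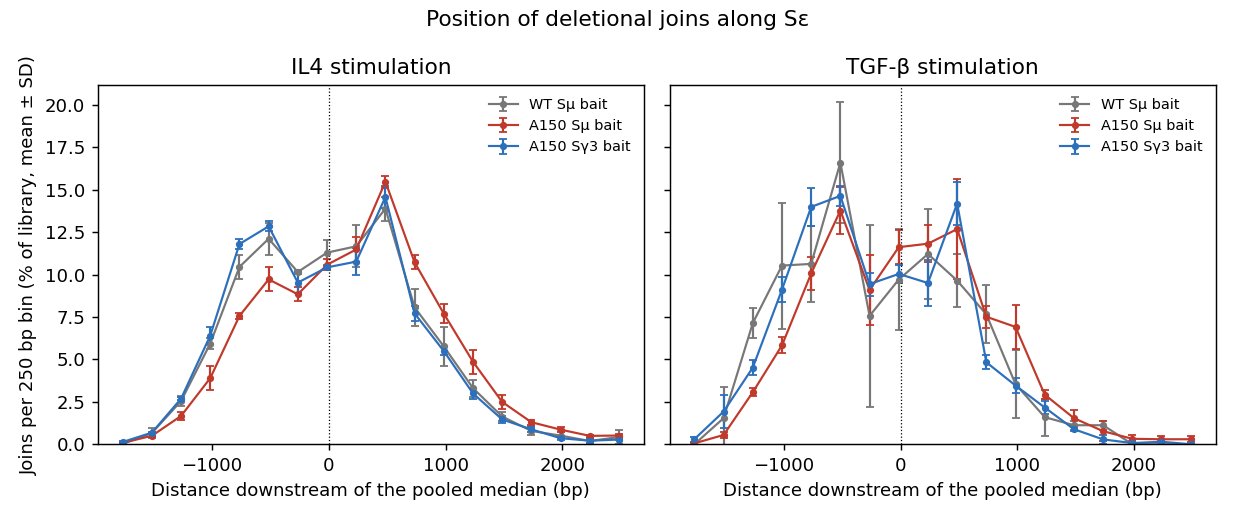
Mean share of a library's deletional joins per 250 bp bin (± SD between libraries) against distance from the pooled median in bp, negative values being upstream, for IL4 (left) and TGF-β (right). From about 250 to 1000 bp upstream the A150 Sµ-bait line lies below the A150 Sγ3-bait line in both panels, and from about 250 to 1000 bp downstream above it, except in 1 bin of the TGF-β panel with 12.7% against 14.2%.

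The upstream share in A150 minus that in WT, both from Sµ, was -10.9 points (2-sided exact permutation test, p = 0.00143, adjusted p = 0.00367). It was 11.6 points higher with the Sγ3 bait than with the Sµ bait in A150 (exact p = 0.000816, adjusted p = 0.00294), and 11.1 points higher in TGF-β than in IL4 cultures (exact p = 4.08e-05, adjusted p = 0.000367). The genotype and bait differences were not shown to vary between the stimulations (exact permutation tests, adjusted p = 0.891 for both). In the bin from 114515000 to 114515999, the most upstream of the 3 main bins, A150 had 13.6% ± 0.988 of its joins from Sµ and 21.6% ± 0.727 from Sγ3 in IL4 cultures, and WT with the Sµ bait had 19.6% ± 0.742. In the bin from 114512000 to 114512999, at the downstream edge, the order was turned, with 5.15% ± 0.610, 2.90% ± 0.206 and 3.12% ± 0.697. The central bin, from 114514000 to 114514999, took 40.6% to 46.3% in all 6 groups. The median prey position of a library ranged from 114514056, in an A150 Sµ-bait library in IL4 cultures, to 114514769, in a WT library in TGF-β cultures.

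The upstream shares of the groups ran nearly in the reverse order of their shares of Sε joins. Ordered by share, the group means were 13.4% (A150, Sµ bait, IL4), 6.30% (WT, Sµ bait, IL4), 5.66% (A150, Sµ bait, TGF-β), 5.08% (A150, Sγ3 bait, IL4), 1.63% (WT, Sµ bait, TGF-β) and 1.58% (A150, Sγ3 bait, TGF-β). In the same order the upstream shares were 37.3% ± 1.56, 47.5% ± 0.686, 48.3% ± 3.53, 49.4% ± 0.694, 59.8% ± 0.768 and 59.4% ± 1.57. The 3 groups with shares between 5.08% and 6.30%, which differ in genotype, bait and stimulation, had upstream shares within 2 points of each other, as did the 2 groups with the lowest shares. This is a description of 6 group means, and no test was made of it.

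Inversional joins lay further upstream than deletional joins of the same library. Their upstream share was 63.0% ± 8.69, 59.3% ± 3.45 and 74.2% ± 2.30 in WT Sµ-bait, A150 Sµ-bait and A150 Sγ3-bait libraries in IL4 cultures. In TGF-β cultures the values were 56.9% ± 6.82, 73.3% ± 2.89 and 77.2% ± 1.58, the first from 2 to 11 inversional joins per library. The mean difference, deletional minus inversional, was -17.3 points, with this sign in 18 of 20 libraries (2-sided permutation test by sign flips within libraries, p = 3e-05, adjusted p = 0.000125 over 5 tests). Both exceptions were WT libraries in TGF-β cultures. Deletional joins made up 92.2% to 93.7% of all Sε joins in the means of the Sµ-bait groups, but 77.8% ± 2.02 and 70.4% ± 1.14 in the A150 Sγ3-bait groups in IL4 and TGF-β cultures, with no overlap between single libraries (89.7% or more against 80.1% or less). This last difference was not tested.

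**Figure D4:**
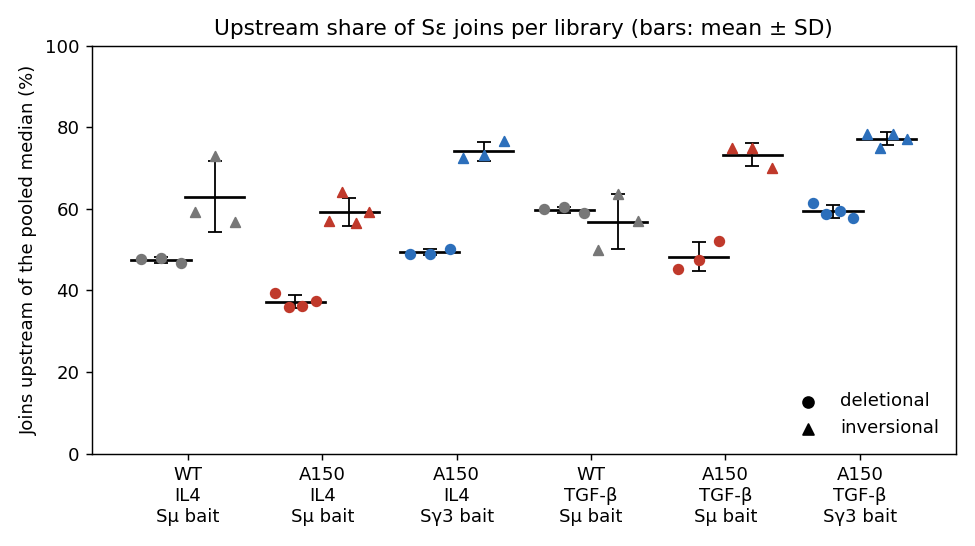
Percentage of Sε joins upstream of the pooled median of deletional joins, for deletional (circles) and inversional (triangles) joins of each library, with mean ± SD per group. Triangles lie above circles of the same group except in WT with TGF-β, where inversional joins numbered 2 to 11 per library.

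The ends that were joined are shown for the A150 libraries by the junction of each overlap class that was found in the most libraries. Each line gives 25 bases of the bait, the junction and 25 bases of Sε, as the majority of the reads of that junction. Capitals mark the shared bases of an overlap, the inserted bases, or the last 2 and first 2 bases around a direct join.
Sµ bait, insertion: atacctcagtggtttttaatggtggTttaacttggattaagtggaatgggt
Sµ bait, direct: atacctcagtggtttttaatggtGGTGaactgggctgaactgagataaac
Sµ bait, overlap 1 to 3 bp: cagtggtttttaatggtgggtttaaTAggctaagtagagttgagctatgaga
Sµ bait, overlap over 3 bp: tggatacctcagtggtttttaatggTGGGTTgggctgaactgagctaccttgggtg
Sγ3 bait, insertion: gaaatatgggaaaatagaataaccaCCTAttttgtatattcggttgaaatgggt
Sγ3 bait, direct: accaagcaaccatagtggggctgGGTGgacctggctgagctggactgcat
Sγ3 bait, overlap 1 to 3 bp: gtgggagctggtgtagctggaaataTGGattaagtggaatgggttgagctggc
Sγ3 bait, overlap over 3 bp: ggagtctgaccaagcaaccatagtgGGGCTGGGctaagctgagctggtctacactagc
The Sµ examples joined the bait ends 114668809, 114668809, 114668801 and 114668806 to Sε at 114513651, 114513617, 114513493 and 114513976. Those of Sγ3 joined 114606283, 114606217, 114606299 and 114606217 to 114514991, 114514175, 114513645 and 114515233. The Sγ3 junction with an overlap of 8 bp was found once in each of 5 of 7 libraries, and the Sµ junction with 6 bp in 4 of 7. In the direct Sγ3 join 1 bait base differed among its 3 reads, and the base of the other reads of that bait is printed. The whole sequence printed for this join was carried by 0 of its 3 reads. The inserted bases printed were those of 2 of 4 reads for Sγ3 and 2 of 3 for Sµ. Recurrence of a junction was rare. Of 14223 distinct Sγ3-bait junctions of the 7 A150 libraries 5.03% occurred in 2 or more of them, as did 4.34% of 14288 distinct Sµ-bait junctions of 7 A150 libraries, with at most 5 and 4 libraries.

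By single lengths, direct joins were the most frequent in each group, at 25.9% to 30.9% in the group means, followed by overlaps of 1 bp (20.1% to 24.0%), 2 bp (11.7% to 13.7%) and insertions of 1 bp (9.60% to 11.2%). Overlaps over 3 bp separated the baits. With the Sγ3 bait in A150 they made up 9.78%, 9.38% and 9.16% of the deletional Sε joins in IL4 cultures and 9.33%, 9.43%, 9.60% and 11.3% in TGF-β cultures. With the Sµ bait in A150 the values were 4.52%, 5.09%, 4.60% and 4.86% in IL4 cultures and 7.33%, 6.08% and 6.68% in TGF-β cultures. The lowest Sγ3-bait library thus lay above the highest Sµ-bait library. WT libraries with the Sµ bait gave 5.41%, 4.01% and 3.88% in IL4 cultures and 5.71%, 5.21% and 1.79% in TGF-β cultures, the last 3 from 70, 96 and 112 joins.

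For overlaps over 3 bp, the Sγ3 bait exceeded the Sµ bait in A150 by 3.95 points (2-sided exact permutation test, p = 0.000816, adjusted p = 0.00294), and this difference was not shown to change with the stimulation (adjusted p = 0.891 by the exact permutation test of the interaction). For genotype the difference with the Sµ bait was 1.40 points (exact p = 0.0343) and did not pass the adjustment (adjusted p = 0.0686). Stimulation gave a difference of 0.738 points (exact p = 0.167, adjusted p = 0.251). Leaving out single libraries brought the last 2 values past the threshold, to 1.77 and 1.64 points for genotype without the WT library of 70 joins or the WT IL4 library of 592 joins, and to 1.15 points for stimulation without the WT library of 112 joins. Both pooled values cover unlike strata. The genotype difference was 0.337 points in IL4 cultures and 2.46 points in TGF-β cultures (no overlap of libraries, exact permutation p = 0.10 before adjustment). The stimulation difference was -0.194 points in WT with the Sµ bait and 0.480 points in A150 with the Sγ3 bait. In A150 from Sµ it was 1.93 points (no overlap of libraries, exact permutation p = 0.0286 before adjustment). Within libraries, overlaps over 3 bp differed by -0.124 points between deletional joins to Sε and to Sγ1 (permutation test, adjusted p = 0.875). The lower value was in Sε in 11 of 20 libraries. This is a mean of opposite signs. In A150 with the Sγ3 bait the group means were lower in Sε, at 9.44% against 10.34% (IL4) and 9.92% against 10.95% (TGF-β). In A150 from Sµ they were higher in Sε, at 4.77% against 4.48% and 6.70% against 4.93%. In WT with the Sµ bait they were 4.43% against 3.94% and 4.24% against 5.43%. This split by group was not tested. For deletional minus inversional Sε joins the difference was 1.90 points, with the higher value for deletional joins in 15 of 20 libraries (permutation test, p = 0.056, adjusted p = 0.0934). Without the WT TGF-β library of 112 joins it was 2.65 points and passed the threshold (permutation test, adjusted p = 0.000983). This difference also varied with the bait. In A150 with the Sγ3 bait the inversional means were 5.23% (IL4) and 5.14% (TGF-β), below the deletional means. With the Sµ bait they were 4.85%, close to the deletional mean, and 5.16%, below it. In WT the sign varied between libraries, and the split by bait was not tested.

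**Figure D5:**
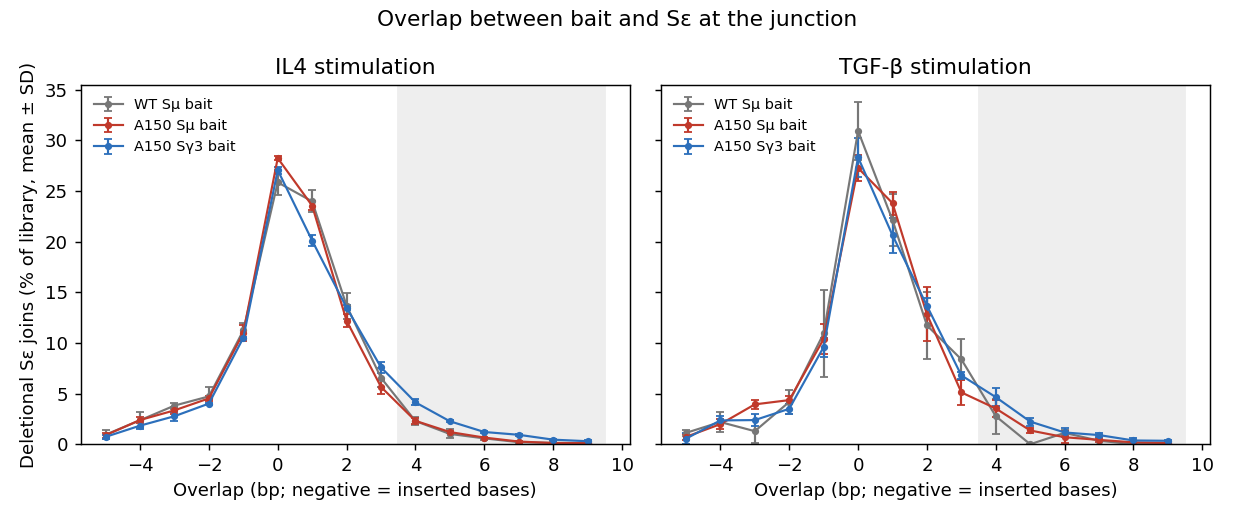
Mean share of a library's deletional Sε joins (± SD between libraries) by overlap in bp for IL4 (left) and TGF-β (right), where 0 is a direct join, negative values are inserted bases, and the grey area marks overlaps over 3 bp. The Sγ3-bait line lies above both Sµ-bait lines at 4 and 5 bp in both panels.

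Overlaps over 3 bp were made of many different sequences. In the 7 A150 libraries of each bait, the 1456 of the Sγ3 bait held 354 different overlaps at 840 Sε positions, and the 761 of the Sµ bait held 289 at 544 positions. Frequent ones with the Sγ3 bait were CTGA (5.08%), TGGG (4.81%), AGCT (4.19%) and GCTG (4.12%). With the Sµ bait, AGCT (4.47%) and TGGG (4.07%) led, followed by TGGA (2.63%). AGCT was part of 18.9% of the Sγ3-bait overlaps and of 10.2% of the Sµ-bait overlaps, and the sequenced bait stretch held 7 AGCT motifs for Sγ3 and 1 for Sµ. The longest overlap had 20 bp with the Sγ3 bait and 16 bp with the Sµ bait.

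Insertions were less frequent with the Sγ3 bait. They made up 22.3% ± 1.24 of the deletional Sε joins with the Sγ3 bait (n = 3) and 25.6% ± 1.15 with the Sµ bait (n = 4) in A150 in IL4 cultures. In TGF-β cultures the means were 20.6% ± 2.19 (n = 4) and 24.3% ± 1.23 (n = 3), and here the libraries of the 2 baits overlapped. Sγ3 minus Sµ bait gave -3.44 points (2-sided exact permutation test, p = 0.00327, adjusted p = 0.00735). For insertions of at least 5 bp it was -0.958 points and did not pass the adjustment (exact permutation test, adjusted p = 0.0661). Direct joins gave a bait difference of -0.0708 points over both stimulations (exact permutation test, adjusted p = 0.933), a mean of opposite signs. It was -1.19 points in IL4 cultures (27.1% with the Sγ3 bait and 28.3% with the Sµ bait, no overlap of libraries, exact p = 0.0286, adjusted p = 0.049 over the 12 single-stimulation tests of the bait) and 1.05 points in TGF-β cultures (exact p = 0.486, adjusted p = 0.583), and the interaction had an exact permutation p of 0.089 (adjusted p = 0.534). Neither class passed the test for genotype (0.891 points for insertions and -0.633 points for direct joins, exact permutation tests, adjusted p = 0.736 and 0.762) or for stimulation (-1.97 and 1.79 points, adjusted p = 0.0984 and 0.155). For direct joins the genotype difference also had opposite signs. It was 2.39 points in IL4 cultures (28.3% in A150 and 25.9% in WT, no overlap of libraries, exact p = 0.0286, adjusted p = 0.114) and -3.66 points in TGF-β cultures (exact p = 0.20, adjusted p = 0.343). The interaction had an exact permutation p of 0.0114 but did not pass the adjustment (adjusted p = 0.137).

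Breaks in the bait were spread over the sequenced stretch. It is shown for both baits, with AGCT in capitals, because the bait break decides which bases can overlap with Sε.
Sµ bait, chr12:114668685-114668894 (mm9, minus strand): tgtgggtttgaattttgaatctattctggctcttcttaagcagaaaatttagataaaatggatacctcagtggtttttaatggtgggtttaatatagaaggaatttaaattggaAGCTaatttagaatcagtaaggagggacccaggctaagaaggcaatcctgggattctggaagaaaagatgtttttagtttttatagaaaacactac
Sγ3 bait, chr12:114606119-114606329 (mm9, minus strand): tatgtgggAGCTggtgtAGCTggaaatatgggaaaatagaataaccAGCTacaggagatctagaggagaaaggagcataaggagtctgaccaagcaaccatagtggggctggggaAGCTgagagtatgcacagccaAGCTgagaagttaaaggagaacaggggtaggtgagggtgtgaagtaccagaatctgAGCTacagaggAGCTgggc
The most used break among deletional Sε joins lay 86 bp from the start of the Sµ bait (7.11% of joins) and 47 bp from the start of the Sγ3 bait (5.34% of joins), found in 13 of 13 and 7 of 7 libraries. The next took 3.25% and 1.99%. At the Sγ3 break at 47 bp, the last aligned bait base was the A of an AGCT motif. Joins with an overlap were counted here too, and for those the exact bond is undefined.

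The median distance of the bait break from the primer was 93.7 bp in WT and 94.8 bp in A150 from Sµ and 93.7 bp in A150 from Sγ3 in IL4 cultures, and 96.5, 93.7 and 93.5 bp in TGF-β cultures. The SDs between libraries were 1.15 to 12.6 bp. Differences by genotype, bait and stimulation were -0.875, -0.625 and 0.528 bp, and none passed the test (exact permutation tests, adjusted p = 0.933 for each). For the bait the mean in place of the median gave -6.21 bp and passed the threshold (exact permutation test, adjusted p = 0.00551). Breaks within 50 bp of the primer made up 22.6% ± 0.915 of the joins with the Sγ3 bait (n = 3) and 9.58% ± 1.85 with the Sµ bait (n = 4) in A150 in IL4 cultures. Compared with deletional joins to Sγ1 of the same library, the median break of Sε joins lay 8.40 bp further from the primer, in 18 of 20 libraries (permutation test, p = 5e-05, adjusted p = 0.000125). That difference was not stable. It came to 2.65 bp with identical junctions counted once (adjusted p = 0.116) and to -8.69 bp with means (adjusted p = 0.0217), both by permutation tests. In Sγ1, 90.1% of the deletional joins were marked for low mapping quality, against none of those in Sε.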

How the data were processed

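CSR-HTGTS junction tables of 26 libraries in 8 groups were used as the authors deposited them. Each row is 1 junction with its bait and prey alignments on genome and read, other than a count or normalized value. The submitters' processing notes name Bowtie2, without a version, and mm9. No listed deletional Sε join was marked for low mapping quality, as a duplicate or as a later junction of a read, and all were counted. IgH was 114450000 to 114700000 on chromosome 12, and Sγ1 114558000 to 114587999. Overlap is the number of read bases in both alignments. Sequences were rebuilt by majority vote from sequenced bases of the reads. Members, regions, motifs and tests were chosen with earlier results of these data known. For positions and sequences, the window of 300 bp with the most joins (libraries weighted equally), its 5 most used positions and, for each A150 bait, the junction of each overlap class found in the most libraries were shown.

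Each of 20 libraries gave 1 value per measure, errors are SDs between libraries, and the 6 WT Sγ3-bait libraries were only described. Library labels were permuted within strata exactly (700, 1225 or 24500 arrangements, 2-sided), with Benjamini-Hochberg adjustment over 18 tests. Interactions were adjusted over 12 tests and single-stimulation tests over the 12 of their comparison (genotype or bait). Within-library differences were tested with 100000 sign flips, adjusted over 5 tests. IgH junctions per library ranged from 4621 to 96481 in these 20. The procedure was tested on simulated data. Values were computed in Python 3.11.15 (numpy 2.4.6, pandas 2.3.3) and drawn with matplotlib 3.10.9.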

Additional observations from a re-analysis of the deposited data

Results flagged for a closer look

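In the A150 Sµ-bait group for anti-CD40+IL4, replicate 1 had a share of deletional Sε joins of 10.9% and stood apart from the other 3 libraries of its group (14.2% to 14.5%). It had the highest upstream share of the group as well, 39.4%. Without it, the genotype difference in share was 6.01 points and the bait difference -6.64 points.

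In the A150 Sγ3-bait group for anti-CD40+TGF-β, replicate 4 had 11.3% of its joins with an overlap over 3 bp, against 9.33% to 9.60% in the other 3. Of 12 combinations of group and measure with 4 libraries, 2 were set apart in this way, and chance gives about 1 in 20.

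WT Sγ3-bait libraries for anti-CD40+IL4, which entered no test, held deletional Sε joins at 3.52% of their 256 IgH junctions, above the 1.17% that a count of 0 would allow. Of the 8 distinct junctions 2 were identical to junctions of A150 Sγ3-bait libraries, and whether they arose in these cells was not tested.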

How the results depend on the processing

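Of 23 results, 10 passed the threshold of 0.05, and in 233 of their 245 recomputations direction and call were kept. In each alternative but the replicate block, share and upstream share kept direction and call for bait and stimulation, as did overlap over 3 bp for bait and the upstream share for genotype and between orientations. Overlap by stimulation passed the threshold without WT anti-CD40+TGF-β Sµ-bait replicate 3, and overlaps over 4 bp gave 0.000111 points. The genotype difference in share was reversed, at -17.4 points, against IgH junctions outside the bait's S region and Sγ1. For libraries with the same number, correlations over 6 measures ran from -0.939 to 0.438. With so few measures, some of them shares of the same joins, these values cannot decide whether the numbers pair the libraries. Pairing them in a replicate block gave 5.41 and -10.9 points for genotype (share, upstream share) and -6.05, 11.9, 3.73 and -3.93 points for bait (share, upstream share, overlap over 3 bp, insertions), each with an exact sign-flip p of 0.0313, the smallest that 6 pairs allow, and an adjusted p of 0.0703, while the bait difference in direct joins turned to 0.257 points. For Sε minus Sγ1, identical junctions counted once gave 2.65 bp, 0.0696 points (overlap over 3 bp) and -1.58 points (insertions, now past the threshold), and junctions marked as duplicates left out gave 2.20 bp, 0.225 points and -1.36 points. Without marks for low mapping quality the insertion difference was 0.0773 points, and for insertions of at least 5 bp it was -0.556 points, past the threshold, where the bait difference became -0.958 points. Alignments of at least 50 bait and 30 prey bases gave -0.451 points for insertions by genotype, and 9.73, -0.236 and -0.500 bp for the bait break by bait, by stimulation and against Sγ1. The last 3 say nothing of stability, since this minimum cuts off short bait breaks themselves. The mean bait break gave 1.18, -6.21, -1.20 and -8.69 bp for genotype, bait, stimulation and Sγ1, and a fixed primer coordinate, added after seeing the data, gave 1.13 bp for bait. Deletional minus inversional overlap over 3 bp passed the threshold with long alignments (3.80 points), without insertions in the denominator (2.49 points) and for overlaps over 4 bp (1.59 points). Leaving out each library gave 1.70 to 2.65 points for it, the latter past the threshold without WT anti-CD40+TGF-β Sµ-bait replicate 3. The same gave, for overlap over 3 bp, 0.785 to 1.77 points by genotype, 0.492 to 1.15 points by stimulation and -0.258 to 0.0535 points against Sγ1. For insertions it gave -2.50 to -1.34 points by stimulation, -0.0617 to 1.68 points by genotype and -0.275 to 0.256 points against Sγ1, with the stimulation difference past the threshold without A150 anti-CD40+TGF-β Sγ3-bait replicate 4 or WT anti-CD40+IL4 Sµ-bait replicate 1. For direct joins by bait it gave -0.508 to 0.288 points, and for the bait break -1.75 to 0.583 bp by bait, -3.50 to 2.63 bp by genotype and -1.81 to 2.28 bp by stimulation. The causes were not tested. Depth limits the WT anti-CD40+TGF-β group, with 70 to 112 joins per library.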
